A study of Mus musculus with 5 samples.

Results

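Genes of red blood cells and of heme synthesis were examined in the mouse forelimb bud at E11.5. The list held 36 genes, chosen by name with earlier results of these data known. Of these, 35 were matched to a probe set through the platform's gene symbols, out of 18193 genes matched in all. No probe set used here carried the symbol Ahsp, which encodes the chaperone of free alpha-globin. The 35 genes had 66 probe sets of their own, and each gene is described on its brightest one, that is, the one whose mean over the 5 arrays was highest, with the others as a check.

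RNA came from 2 forelimb samples of the genotype Sost-/-; Sostdc1-/- and 3 of the wild type, each hybridised to its own Affymetrix array. All embryos were of the C57Bl/6 strain at E11.5, no treatment was named, and the labels state that embryos were not pooled. Sost and Sostdc1 encode secreted antagonists of Wnt and BMP signalling, and the title ties both genes to digit number and to Gli3. The comparison therefore asks how the limb bud transcriptome differs when both antagonists are missing. Which part of each gene was deleted, and how the alleles were made, was not given in the sources used here.

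At this stage the blood of the mouse embryo consists mostly of primitive erythroid cells, which enter the circulation from the yolk sac while still nucleated and go on maturing there. They carry embryonic haemoglobin, built from the zeta-globin of Hba-x and the beta-like globins of Hbb-y and Hbb-bh1, along with some adult-type alpha-globin. Heme is made by a chain of enzymes that starts in the mitochondrion with Alas2, the erythroid aminolevulinate synthase and the rate-limiting step, passes through the cytosol with Alad, Uros and Urod, and returns to the mitochondrion, where Cpox, Ppox and Fech complete it. The GATA1, TAL1 and KLF1 proteins switch on most of these genes. A limb bud contains such cells only as blood in its vessels, and in whole tissue fewer cells of a type and less RNA per cell cannot be told apart. Nor can the part of a gene's signal that came from other cells of the limb bud.

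Levels are log2 intensities, differences are double mutant minus wild type on that scale with limma's standard error (SE), and a gene was called at an adjusted p under 0.05 over all 45037 mouse probe sets. Median array intensities lay between 39.4 and 44.4. Signal of the deleted genes was lower on 1 of 2 probe sets each (difference −2.17 for Sost on 1450179_at and −2.35 for Sostdc1 on 1460250_at), and the other probe sets stood at −0.73 and 0.05. Control transcripts differed between the groups as well. The Dap transcript, a spike-in mixed into the RNA ahead of labelling, averaged 6.74 and 7.06 in the double mutant arrays and 3.29 to 3.43 in wild type. The 3′ minus 5′ difference of the Gapdh control was 0.16 and 0.27 in double mutants and −0.14 to −0.06 in wild type. Both double mutant arrays had a high level of Xist (12.37 and 11.75) together with the Y-linked Eif2s3y (8.36 in each, the same deposited value). Wild type replicate 1 was high for Xist alone (12.28, with Eif2s3y at 3.20). Wild type replicates 2 and 3 were high for Eif2s3y alone (8.49 and 8.42, with Xist at 5.73 and 5.70). Whether each double mutant array held RNA of a single embryo is therefore uncertain, and for every difference below the genotype and these differences in preparation cannot be told apart.

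On the brightest probe sets, 10 of the 35 genes fell in double mutants, 0 rose and 25 were not called. Of all genes taken the same way, 8.14% were called lower and 6.56% higher, and of the 11537 genes brighter than the median probe set, as were 34 of the 35, 1322 were called lower. The median difference of the 35 genes was −0.29, against −0.018 over all genes, and 28 of the 35 differences were below 0, against 54.3% of all genes. Both double mutant arrays lay below all wild type arrays in 16 of the 35 genes (23.0% of all genes) and above them in 3 (20.2% of all genes). Because the list was chosen with earlier results of these data known, these shares are no test of it. The genes that fell were spread over the roles. They were Hba-x among the globins, Alas2 and Fech among the heme enzymes, Slc25a37 among the iron carriers, Epb42, Rhag and Slc4a1 at the membrane, Nfe2 and Trim10 among the regulators, and Car2 among the cytosolic enzymes. The fall reached at least 2-fold in 4 of them, namely Alas2, Epb42, Rhag and Slc4a1.

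Calls were lost whichever array was left out. Whether the loss came from single arrays or from the smaller number of arrays was not tested. Without double mutant replicate 1 or wild type replicate 2, limma called 0 of the 35 genes and 0 of all probe sets, with 13 of the 35 at an unadjusted p under 0.05 in each case. Over all 45037 probe sets, 11115 had an unadjusted p under 0.05 without wild type replicate 2. Without wild type replicate 1, 2 of the 10 calls were kept, and without wild type replicate 3, 4 were. Leaving out a double mutant array leaves only 1 in that group. The 10 differences stayed negative whichever array was left out. With the Gapdh 3′ minus 5′ difference as a covariate, which by itself separates the groups, limma called 0 of the 35 genes, with 5 at an unadjusted p under 0.05. In that fit 4259 of all 45037 probe sets were at an unadjusted p under 0.05. Double mutant replicate 1 lay below replicate 2 in 27 of the 35 genes, against 45.9% of all probe sets.

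**Figure D1:**
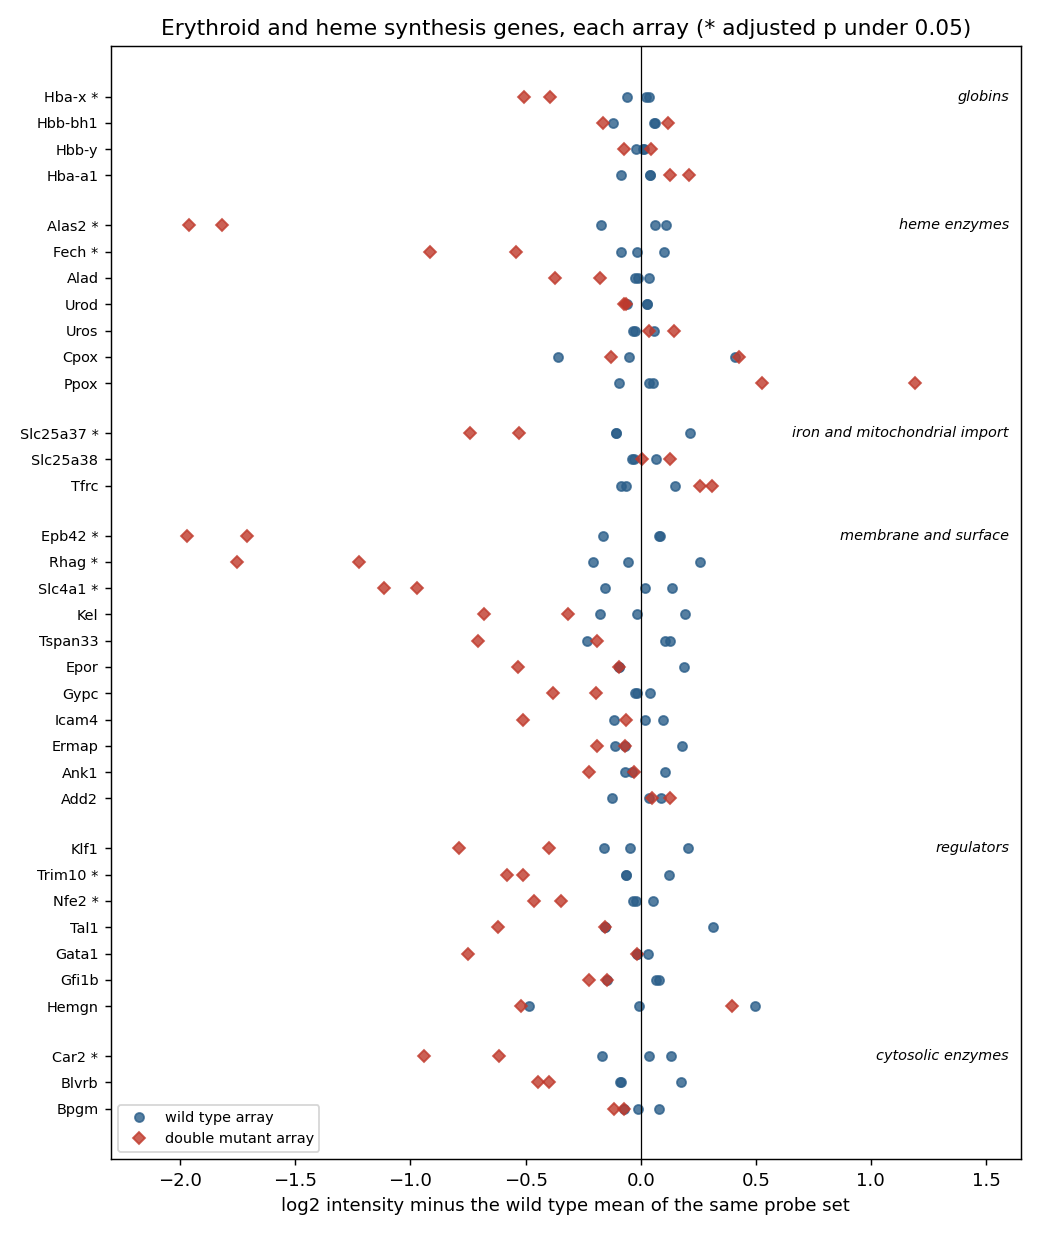
Log2 intensity of each listed gene on each array, minus the wild type mean of the same probe set, on the brightest probe set per gene and grouped by role; circles are the 3 wild type arrays, diamonds the 2 double mutant arrays, and an asterisk marks an adjusted p under 0.05. Alas2, Epb42, Rhag and Slc4a1 lie farthest to the left, while Hbb-y and Hbb-bh1 scatter around 0.

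The promoters of the genes with the largest falls and of 2 embryonic globin genes are shown because erythroid factors are known to act on them and their differences here ranged from −1.89 to −0.01. Each sequence holds the 250 bases before the RefSeq start site (GRCm38.p6), and capitals mark the GATA motif (A or T, then GATA, then A or G) on either strand, the letters bound by GATA factors.
Alas2 (chrX:150547167-150547416, plus strand): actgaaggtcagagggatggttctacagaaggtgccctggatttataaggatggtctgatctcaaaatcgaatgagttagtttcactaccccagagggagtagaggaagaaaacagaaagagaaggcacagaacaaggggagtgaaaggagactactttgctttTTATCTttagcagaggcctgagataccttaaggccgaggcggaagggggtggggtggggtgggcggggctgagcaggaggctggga
Epb42 (chr2:121036878-121037127, minus strand): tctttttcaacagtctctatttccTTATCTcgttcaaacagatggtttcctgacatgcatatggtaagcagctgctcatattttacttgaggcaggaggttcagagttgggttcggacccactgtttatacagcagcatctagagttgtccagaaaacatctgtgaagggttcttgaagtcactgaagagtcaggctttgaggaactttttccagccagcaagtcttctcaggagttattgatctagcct
Rhag (chr17:40810899-40811148, plus strand): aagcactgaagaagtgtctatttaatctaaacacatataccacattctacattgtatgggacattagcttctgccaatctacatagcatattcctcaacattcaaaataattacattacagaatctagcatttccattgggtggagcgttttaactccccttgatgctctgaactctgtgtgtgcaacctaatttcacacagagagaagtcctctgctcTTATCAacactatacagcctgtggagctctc
Hba-x (chr11:32276350-32276599, plus strand): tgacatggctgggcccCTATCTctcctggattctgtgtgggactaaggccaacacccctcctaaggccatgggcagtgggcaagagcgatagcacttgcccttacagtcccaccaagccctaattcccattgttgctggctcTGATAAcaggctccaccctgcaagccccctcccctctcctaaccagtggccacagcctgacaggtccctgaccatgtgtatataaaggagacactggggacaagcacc
Hbb-y (chr7:103853208-103853457, minus strand): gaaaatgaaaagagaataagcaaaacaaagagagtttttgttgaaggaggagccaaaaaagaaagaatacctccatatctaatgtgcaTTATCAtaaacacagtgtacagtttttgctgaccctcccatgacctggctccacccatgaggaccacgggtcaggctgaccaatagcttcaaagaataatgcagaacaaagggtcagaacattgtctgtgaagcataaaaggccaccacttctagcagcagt
The GATA match began 86 bases before the start in Alas2, 226 in Epb42, 31 in Rhag, 162 in Hbb-y, and 234 and 108 in Hba-x. Of the 27 listed genes with a promoter in the RefSeq table, 19 (70.4%) held such a match in this window, against 29.7% of all 27025 genes. A match to CCNCNCCC, the letters bound by KLF1, was present in 16 of the 27 (59.3%, against 48.5% of all genes), and one to the E-box CANNTG in 18 of the 27 (66.7%, against 69.3%). The NF-E2 letters TGACTCA were in 2 of the 27 (7.41%, against 5.16%). All were searched on either strand. Alas2 held 4 KLF1 matches and Hba-x held 1, and the other 3 printed sequences held 0. No GATA match in the printed sequences overlapped a match to another motif searched. The 5 called genes in the table all held a GATA match, as did 14 of the 22 that were not called. A match is a description of these letters and not a binding site.

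Of the 4 globins, which carry oxygen as haemoglobin, Hba-x fell and 3 were not called (8.14% of all genes were called lower). Hba-x, the embryonic zeta-globin, had 13.57 and 13.68 in double mutants and 14.10, 14.02 and 14.12 in wild type. Both double mutant arrays were below all wild type arrays, and the difference was −0.45 ± 0.06 (SE, limma adjusted p = 0.0186), a level 0.731 times that of wild type. Hbb-y, the embryonic epsilon-like globin, had 14.29 and 14.41 in double mutants and 14.37, 14.34 and 14.38 in wild type. The groups overlapped (−0.01 ± 0.06, limma adjusted p = 0.894), and its 2 other probe sets stood at −0.02 and −0.04. Hbb-bh1, a second embryonic beta-like globin, had 13.52 and 13.80 in double mutants and 13.74, 13.56 and 13.75 in wild type, again overlapping (−0.02 ± 0.12, limma adjusted p = 0.919), with other probe sets at −0.01 and −0.22. Hba-a1, an adult alpha-globin, had only a dim probe set of its own, 1453574_at, at 3.67 and 3.75 in double mutants and 3.46 to 3.59 in wild type (0.17 ± 0.07, limma adjusted p = 0.176). The control for an absent transcript stood at 3.05 to 3.14, so this probe set lay close to it.

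The globin signal lay at the top of the range. On each array the brightest Hbb-y probe set ranked between 4 and 11 among 45037, with a highest value of 14.49 for any probe set on any array, and Hba-x ranked between 26 and 157. Whether changes were compressed near the top was not tested. Adult-type globins were measured mainly on probe sets that carry the symbols of several near-identical genes and were counted for none of them. The probe set for both Hba-a1 and Hba-a2 that was brightest, 1428361_x_at, had 14.39 and 14.32 in double mutants and 14.21, 14.24 and 14.32 in wild type. A second one, 1452757_s_at, had 14.01 and 13.93 against 14.14, 14.12 and 14.23. The third, 1417714_x_at, had 12.01 and 11.69 in double mutants against 14.23, 14.26 and 14.40 in wild type. The first differed by 0.10 (limma adjusted p = 0.336) and the second by −0.20 (adjusted p = 0.106), while the third was lower by −2.45 ± 0.12 (SE, adjusted p = 0.00527). The 3 differences thus ran from −2.45 to 0.10, while the SD within a group was at most 0.23 on any of these probe sets. The place of each along the transcript was not known here. The probe set shared by the adult beta-globin genes, 1417184_s_at, had 12.83 and 12.67 in double mutants and 13.20, 13.25 and 13.46 in wild type, and was lower by −0.55 ± 0.11 (SE, limma adjusted p = 0.0364).

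Among the 7 heme enzymes 2 fell, against 8.14% of all genes, and 5 were not called, with a median difference of −0.07. Alas2, on 1451675_a_at, had 7.46 and 7.60 in double mutants and 9.49, 9.25 and 9.53 in wild type. The gap between the groups was wider than the range within either, and Alas2 showed the largest fall of the 35 genes over all arrays, at −1.89 ± 0.11 (SE, limma adjusted p = 0.00622), a level 0.27 times that of wild type. The order of Alas2 and Epb42 was not stable. The fall of Epb42 was larger without double mutant replicate 1 (−1.97, against −1.82 for Alas2) and without wild type replicate 3 (−1.92 against −1.84). A replicate block gave the same differences as the latter, since only wild type has a replicate 3 and the block sets that array aside. Epb42 also fell more with quantile normalization (−1.89 against −1.83) and with the Gapdh 3′ minus 5′ difference as a covariate (−2.0 against −1.68). Alas2 had 1 probe set, so no second one could be compared. Fech, the ferrochelatase that inserts iron into the ring, had 9.60 and 9.22 in double mutants and 10.05, 10.12 and 10.24 in wild type. It was lower in both double mutant arrays, by −0.73 ± 0.14 (SE, limma adjusted p = 0.0353). A second Fech probe set fell too (−1.04 ± 0.12, adjusted p = 0.0123), the third stood at −0.48 (adjusted p = 0.125), and the dimmest, at 3.69 to 3.96 in wild type, was called higher (1.09 ± 0.12, adjusted p = 0.012).

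The 5 remaining enzymes were not called. Alad, which joins aminolevulinate into porphobilinogen, had 10.09 and 10.28 in double mutants and 10.45, 10.44 and 10.49 in wild type, without overlap but not called (−0.27 ± 0.08, limma adjusted p = 0.081). Without double mutant replicate 2 it was called lower (−0.37, adjusted p = 0.0475). Uros and Urod, which build and trim the ring, stood at 0.09 and −0.07 (adjusted p = 0.38 and 0.421), and their second probe sets at 0.09 and −0.02. Cpox, the coproporphyrinogen oxidase, stood at 0.15 with overlapping groups (adjusted p = 0.768). Ppox, the step before Fech, had 9.29 and 8.63 in double mutants and 8.13, 8.01 and 8.15 in wild type. Both double mutant arrays were above wild type, unlike those of Alas2 and Fech, but they lay far apart and Ppox was not called (0.86 ± 0.22, limma adjusted p = 0.0662). With equal array medians, quantile normalization or a filter on dim probe sets it was called higher (adjusted p = 0.0316, 0.0335 and 0.0372). It was also called without double mutant replicate 2 (1.19, adjusted p = 0.0408), while without replicate 1 it stood at 0.53 (adjusted p = 0.0743). The other 2 Ppox probe sets, both dim, stood at 0.56 and 0.02.

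Iron reaches the pathway through the transferrin receptor Tfrc at the cell surface and the carrier mitoferrin, encoded by Slc25a37, in the inner mitochondrial membrane. Slc25a37 had 8.66 and 8.87 in double mutants and 9.29, 9.30 and 9.61 in wild type, without overlap, and fell by 0.64 ± 0.14 (SE, limma adjusted p = 0.0485). The call was lost with quantile normalization (adjusted p = 0.0549) and with an offset of 16 added before log2 (adjusted p = 0.0511). Slc25a38, a glycine carrier that supplies Alas2, stood at 0.07 with overlapping groups (adjusted p = 0.529). Tfrc gave opposite signs on its probe sets. The brightest, 1452661_at, had 10.70 and 10.75 in double mutants and 10.59, 10.38 and 10.35 in wild type, with no overlap and no call (0.28 ± 0.09, adjusted p = 0.115). The next, 1422966_a_at, had 5.40 and 5.45 in double mutants and 9.00, 8.52 and 7.49 in wild type. There the difference was −2.91 ± 0.49 (SE, limma adjusted p = 0.0269), and the third probe set stood at −2.81 (adjusted p = 0.0771). The direction of Tfrc thus depends on the probe set read.

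At the membrane and cell surface 3 of 11 genes fell, against 8.14% of all genes, and 8 were not called. The median difference was −0.31, and 10 of 11 differences were below 0, against 54.3% of all genes. Epb42 encodes protein 4.2, which ties the anion exchanger to the ankyrin skeleton, and had 4.73 and 4.47 in double mutants and 6.52, 6.52 and 6.28 in wild type. It fell by 1.84 ± 0.13 (SE, limma adjusted p = 0.00687), to 0.279 times the wild type level, and its dimmer probe set stood at −0.53 (adjusted p = 0.17). Rhag, the Rh-associated glycoprotein, had 5.47 and 6.00 in double mutants and 7.17, 7.02 and 7.49 in wild type. The lowest wild type array was above the highest double mutant array. The Rhag difference was −1.49 ± 0.23 (SE, limma adjusted p = 0.0219), and −1.25 with that offset. Slc4a1, the band 3 anion exchanger, had 8.81 and 8.95 in double mutants and 9.94, 9.76 and 10.06 in wild type. It fell by 1.04 ± 0.11 (SE, limma adjusted p = 0.0112), while its 2 other probe sets, at −0.25 and −0.63, were not called (adjusted p = 0.272 and 0.164).

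The remaining surface genes were not called on their brightest probe sets. Gypc (glycophorin C) stood at −0.29 and Kel (a blood group metalloprotease) at −0.50, both without overlap between the groups, with limma adjusted p of 0.0715 and 0.126. Epor, the erythropoietin receptor, had 6.25 and 6.69 in double mutants and 6.69, 6.69 and 6.98 in wild type (−0.31 ± 0.18, adjusted p = 0.309). Double mutant replicate 1 alone was below wild type there, and double mutant replicate 2 had the same deposited value as wild type replicates 1 and 2. Icam4, an adhesion molecule of erythroblasts, and Ermap stood at −0.29 and −0.13 with overlapping groups. Tspan33, Ank1 (ankyrin) and Add2 (beta-adducin) stood at −0.45, −0.13 and 0.09, and each had dimmer probe sets that were called lower. These were 2 for Tspan33 (−0.99 and −0.71, adjusted p = 0.00876 and 0.0096), 1 for Ank1 (−1.35, adjusted p = 0.044) and 1 for Add2 (−1.72, adjusted p = 0.0393).

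All 7 regulators had differences below 0, against 54.3% of all genes. Of the 7, 2 were called lower, against 8.14% of all genes, and the median was −0.39. Equal deposited values occurred in 4 of these 7 probe sets, in 3 of them across the groups. Nfe2, a subunit of the NF-E2 factor that acts on the globin loci, had 6.38 and 6.49 in double mutants and 6.89, 6.80 and 6.82 in wild type. It fell by 0.40 ± 0.06 (SE, limma adjusted p = 0.0226). Trim10, an erythroid ubiquitin ligase family gene needed for terminal differentiation, had 7.20 and 7.27 in double mutants and 7.72, 7.72 and 7.90 in wild type. It fell by 0.55 ± 0.08 (SE, limma adjusted p = 0.0212), and its wild type replicates 1 and 2 had the same deposited value. In both genes the groups were apart, and both calls were lost with quantile normalization (adjusted p = 0.0625 and 0.0523). Klf1, the Krüppel-like activator of erythroid genes, had 7.20 and 7.59 in double mutants and 8.20, 7.83 and 7.94 in wild type. It did not overlap and was not called (−0.59 ± 0.17, limma adjusted p = 0.0938), though it was with equal array medians (adjusted p = 0.0391).

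Gata1, the master factor of the lineage, had 5.38 and 6.12 in double mutants and 6.12, 6.12 and 6.17 in wild type (−0.38 ± 0.23, limma adjusted p = 0.339). Tal1, which acts in complexes with GATA1, had 6.99 and 7.45 in double mutants and 7.45, 7.45 and 7.92 in wild type (−0.39 ± 0.23, adjusted p = 0.323). In both, double mutant replicate 1 was low, and the 3 equal values were identical as deposited. The Gata1 difference rested on that array: it was −0.75 and called lower without double mutant replicate 2 (limma adjusted p = 0.0387), and −0.016 without replicate 1 (adjusted p = 0.84). Gfi1b, a repressor of the lineage, stood at −0.19 and Hemgn at −0.06, with overlapping groups in each. Hemgn varied most among arrays of the same group, from 7.28 to 8.20 in double mutants and from 7.32 to 8.30 in wild type. Equal deposited values on at least a pair of arrays occurred in 8 of the 35 brightest probe sets, and in 48.5% of all probe sets. Such values narrow the measured spread, and how they arose was not tested.

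Car2, the carbonic anhydrase of red cells, had 9.68 and 10.01 in double mutants and 10.66, 10.46 and 10.76 in wild type. It fell by 0.78 ± 0.15 (SE, limma adjusted p = 0.0344), with no overlap. Blvrb, a flavin and biliverdin reductase, had 8.46 and 8.41 in double mutants and 8.77, 8.76 and 9.03 in wild type, also without overlap (−0.42 ± 0.10, adjusted p = 0.0643). It was called with equal array medians or a filter on dim probe sets (adjusted p = 0.0408 and 0.0419). Bpgm, which makes the bisphosphoglycerate that lowers the oxygen affinity of haemoglobin, stood at −0.09 and −0.02 on its 2 brighter probe sets. On 1448119_at, the dimmest, it was lower by −0.97 ± 0.10 (adjusted p = 0.00999).

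**Figure D2:**
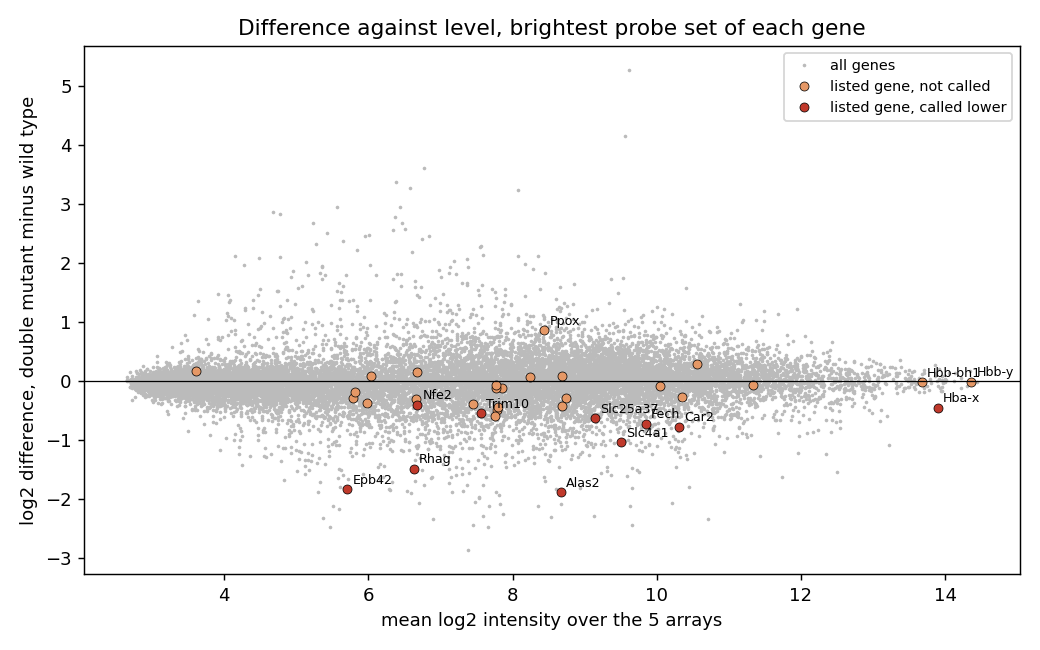
Log2 difference, double mutant minus wild type, against the mean log2 intensity over the 5 arrays for the brightest probe set of every gene (grey) and of the listed genes (coloured, red where called lower). Alas2 and Epb42 lie near −1.89 and −1.84, at the lower edge of the cloud, and the embryonic globins lie at the right end.

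The other probe sets gave further calls, most of them downward. Of 15 listed genes with more than 1 probe set, 5 were not called on the brightest and called lower on another. These were Add2, Ank1, Bpgm, Tfrc and Tspan33, and Fech was called in both directions. The share of all genes with either pattern was not taken. Over the 31 probe sets other than the brightest, 7 were called lower and 1 higher, while 15.0% and 8.66% of all such probe sets were called lower and higher. The median difference of these 31 was −0.22. Averaging all probe sets of each gene gave 16 of the 35 genes lower and 0 higher. The share of all genes called in that fit was not taken, so this count has no background beside it. The largest ranges within a gene were 3.20 for Tfrc and 2.14 for Fech, and the smallest were 0.0032 for Uros and 0.023 for Hbb-y. The part of 3′ bias in these disagreements was not tested, because the position of the probe sets was not known here.

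**Figure D3:**
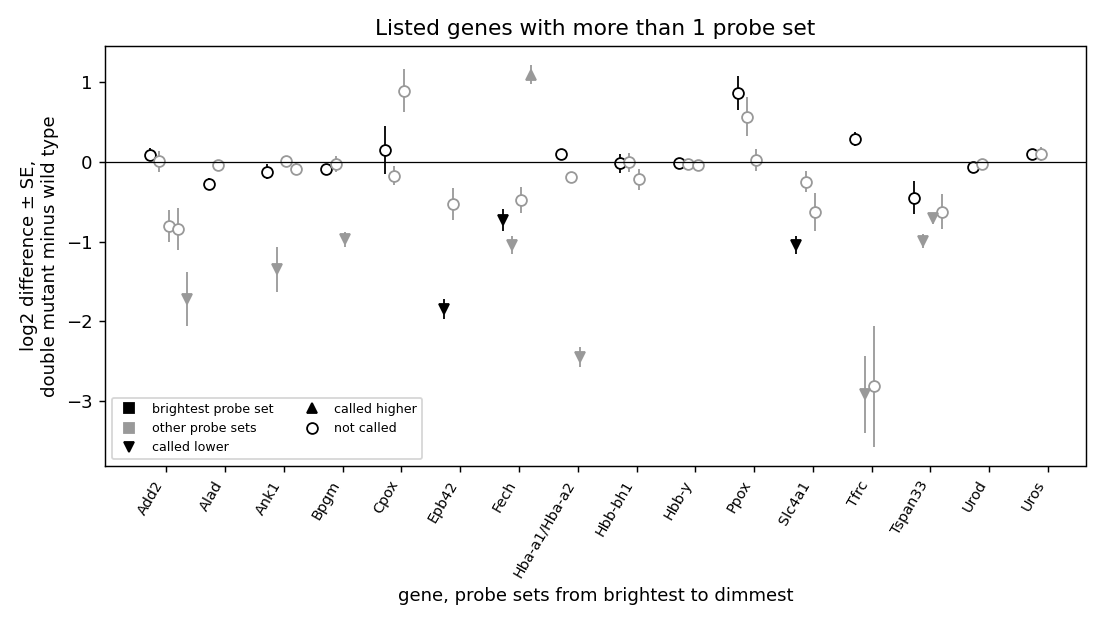
Log2 difference ± SE, double mutant minus wild type, for every probe set of the 15 listed genes with more than 1 and of the probe sets shared by Hba-a1 and Hba-a2, ordered from brightest to dimmest within a gene; filled triangles were called. The Hbb-y and Uros probe sets lie together, while those of Tfrc, Fech and the shared alpha-globin pair spread widely.

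Further genes of these pathways were read from lists written from general knowledge. Beside each of their counts, 8.14% of all genes were called lower and 6.56% higher. No such share was taken for an unadjusted p. Among red cell membrane genes outside the 35, 5 of 10 measured genes were lower, 0 were higher and the median was −0.43. Of these, Tmod1, which caps the actin filaments of the membrane skeleton, differed by −0.70 ± 0.09 (SE, limma adjusted p = 0.0155), the adducin gene Add1 by −0.54 ± 0.08 (adjusted p = 0.0201) and the water channel gene Aqp1, also of endothelium, by −0.70 ± 0.12 (adjusted p = 0.0288). In heme export and breakdown 2 of 7 fell and 0 rose. These were Hmox1, the heme oxygenase, from 7.37, 7.35 and 7.16 in wild type to 6.26 and 6.03 (−1.15 ± 0.11, adjusted p = 0.00938), and the heme-binding Hebp1 (−0.58 ± 0.11, adjusted p = 0.0332).

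In iron handling 2 of 11 measured genes fell, 0 rose and the median was −0.21. Ireb2, an RNA-binding sensor of iron, differed by −0.76 ± 0.09 (SE, limma adjusted p = 0.0141) and Fth1, ferritin heavy chain, by −0.50 ± 0.08 (adjusted p = 0.0228). Of 5 other genes of heme synthesis 1 rose, Tmem14c, a mitochondrial porphyrin importer (0.34 ± 0.06, adjusted p = 0.0336), and 0 fell, with a median of 0.026. Of 23 further regulators 4 fell and 0 rose, with a median of −0.12. The 3 with the smallest p were Lyl1, a relative of Tal1 (−0.56 ± 0.05, adjusted p = 0.00925), the cell cycle factor E2f4 (−1.11 ± 0.12, adjusted p = 0.0123) and Foxo3 (−0.56 ± 0.10, adjusted p = 0.0299). Neither of 2 further globin genes with a probe set of its own was called by limma, and 1 had an unadjusted p under 0.05.

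Markers of other cell types were called in both directions. Each marker count below stands beside 8.14% of all genes called lower and 6.56% called higher. For an unadjusted p no such share was taken. Of 6 measured megakaryocyte and platelet markers 3 rose and 0 fell. Pf4 had 9.66 and 9.47 in double mutants against 8.80, 8.89 and 8.95 in wild type (0.69 ± 0.09, SE, limma adjusted p = 0.0152), Ppbp differed by 0.77 ± 0.12 (adjusted p = 0.0235) and Treml1 by 0.34 ± 0.06 (adjusted p = 0.0329), while the defining markers Itga2b and Gp9 stood at 0.12 and −0.08 and were not called. The summed intensity of this list was 1407 to 1579 in double mutants and 978 to 1053 in wild type. Of 8 endothelial markers 5 fell and 0 rose, with a summed intensity of 1504 to 1539 against 2120 to 2241. Pecam1 differed by −1.98 ± 0.13 (adjusted p = 0.00663), while the defining markers Cdh5 and Kdr stood at −0.06 and −0.03.

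Of 11 macrophage markers 1 fell, C1qc (−0.74 ± 0.14, limma adjusted p = 0.0381), and 0 rose, a count near the 8.14% of all genes called lower. Their summed intensity was 1180 to 1460 against 1506 to 1778, and the defining markers Csf1r, Adgre1 and C1qb stood at −0.63, 0.01 and −0.50 and were not called. Of 5 blood progenitor markers limma called 0, with 2 at an unadjusted p under 0.05 and summed intensities of 1001 to 1141 against 1066 to 1068. The tissue itself was present on all arrays. The 8 limb mesenchyme markers, 1 of them called higher and 0 lower, summed to 18224 to 19516 in double mutants and 18023 to 18514 in wild type. The 5 surface ectoderm markers, 3 of them called higher and 0 lower, summed to 2982 to 3413 against 2009 to 2069. The listed genes other than the 4 globins summed to 12840 and 13470 in double mutants and to between 15203 and 16951 in wild type. No marker was at 0, and the dimmest marker, Flt3 of the progenitors, stood at 4.69 to 4.95. The part of these cell types in the erythroid differences was not tested.

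**Figure D4:**
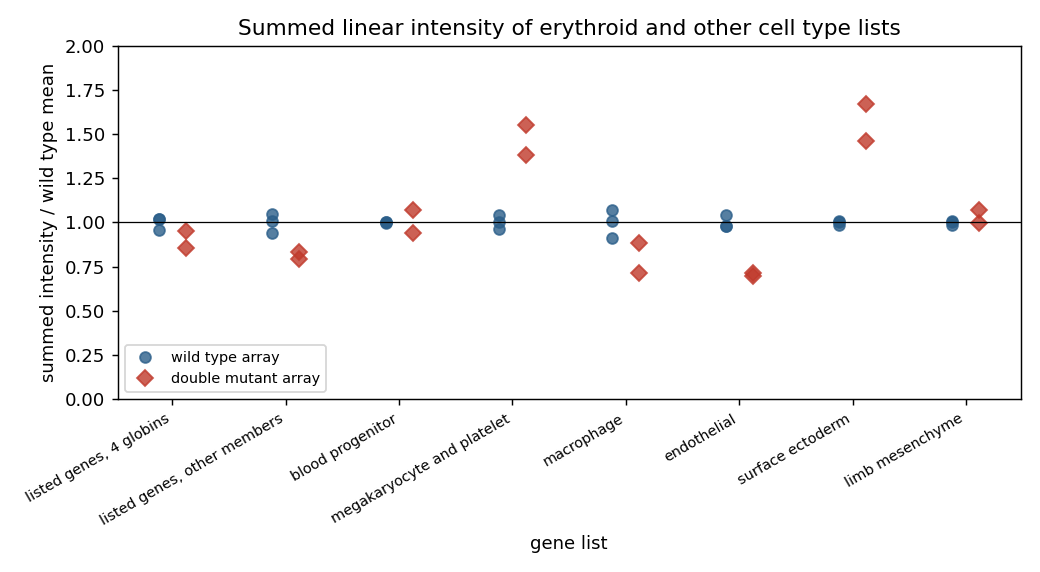
Summed linear intensity of the brightest probe sets of each gene list on each array, divided by the wild type mean; circles are wild type and diamonds double mutant arrays. The ratio of group means was 0.904 for the 4 globins, 0.813 for the other listed genes, 0.704 for endothelial, 1.47 for megakaryocyte and platelet and 1.57 for surface ectoderm markers.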

How the data were processed

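Forelimb RNA of 5 arrays was labelled with biotin by the two-cycle Affymetrix kit, per the labels' protocols. The deposited values were linear intensities, 1 per probe set. RMA and limma are named, without role, order or version, per the submitters' processing notes. How they were put on a linear scale was not given in the sources used here. Log2 was taken of the deposited values, with no further normalization. Of 45101 probe sets, 64 controls were left out. Symbols came from the platform annotation, and only probe sets with 1 symbol (34945) were named. Limma 3.58.1 in R 4.3.3 fitted 1 mean per genotype, with two-sided p adjusted by the Benjamini-Hochberg method and 3 residual and 1.29 prior degrees of freedom. The fit was also run on simulated arrays with independent noise. These lacked the equal deposited values and the control differences described above, so they cannot check the fit for those. Array number limits the precision. Other scalings, an offset of 16, a filter on dim probe sets, a trend, a covariate, a replicate block, other probe sets and each array left out were tried. No list was given a set test. Listed genes were all named, with up to 3 called genes of each further list and the defining markers of each cell type. The members and lists were chosen with earlier results of these data known.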

Additional observations from a re-analysis of the deposited data

How the results depend on the processing

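The signs of the 10 called differences held in every setting tried, but not the sizes. With the Gapdh covariate Nfe2 stood at −0.081, Car2 at −0.28, Hba-x at −0.26, Rhag at −0.91 and Fech at −1.70, and by the mean of all probe sets Fech stood at −0.29, Slc4a1 at −0.64 and Epb42 at −1.18. On the second brightest probe set only 3 of these genes could be read. An intensity trend kept all 10 calls, as did equal array medians, a filter on dim probe sets and the mean of all probe sets, while an offset of 16 kept 9 and quantile normalization 7. Leaving out each array in turn, the genes called lower numbered 0 to 5 (Blvrb joined without wild type replicate 3, and Alad and Gata1 without double mutant replicate 2), those called higher 0 to 1 (Ppox, without double mutant replicate 2), and the median difference ran from −0.40 to −0.15. All probe sets called higher then ranged from 0 to 1963 and those called lower from 0 to 3198, with 14059 and 11115 at an unadjusted p under 0.05 where none was called. The median over all probe sets was 0.091 higher in double mutants than in wild type on the log2 scale.

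Ppox also made the count of genes called higher 1 with equal array medians, quantile normalization or the filter on dim probe sets. With the mean of all probe sets 16 genes were called lower, a count for which no share of all genes was taken. On the second brightest probe set, which 15 genes had, 4 were called lower and the median was −0.040. Of all probe sets other than the brightest of a gene, 15.0% were called lower, and no share was taken for the second brightest alone. The replicate numbers did not establish pairs: same-numbered arrays deviated from their group means with correlations of 0.089 and 0.12, over only 2 pairs. With the replicate block, 1 gene was called lower, and 1022 probe sets were called higher and 1329 lower. Its differences equal those without wild type replicate 3, the only array of that number. With the Gapdh 3′ minus 5′ difference as a covariate, which by itself separates the groups, 0 genes and 0 probe sets were called in either direction and the median was −0.084.

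Signs changed for genes that were not called. With the Gapdh covariate the difference became 0.51 for Hbb-bh1, 0.20 for Hbb-y, 0.033 for Alad, −0.23 for Uros, −0.42 for Ppox, 0.054 for Gypc, 0.14 for Epor, 0.0031 for Ank1, −0.36 for Add2, 0.46 for Icam4, 0.51 for Tspan33, 0.51 for Klf1, 0.95 for Gata1, 0.26 for Gfi1b and 2.39 for Hemgn. With equal array medians it became −0.0002 for Uros, −0.023 for Slc25a38 and −0.0023 for Add2, and with quantile normalization 0.0098 for Hemgn. With the replicate block, and equally without wild type replicate 3, it became 0.0097 for Hbb-bh1 and −0.032 for Cpox. Leaving out an array turned Hbb-bh1 (−0.16 to 0.12), Hbb-y (−0.071 to 0.045), Hemgn (−0.52 to 0.40) and Cpox (−0.13 to 0.43). Tfrc stood at −1.81 and Add2 at −0.65 by the mean of all probe sets, and Cpox at −0.18 and Tfrc at −2.91 on the second brightest. The cause of these changes was not tested.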

Other observations

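Probe sets shared by several genes of iron storage and red cell maturation were left out of the counts. Of 2 shared by ferritin light chain Ftl1 and a pseudogene, 1418364_a_at had 12.91 and 12.93 in double mutants and 12.91 on every wild type array. Double mutant replicate 1 and all wild type arrays had the same deposited value there. The other, 1422302_s_at, differed by −0.029 (limma adjusted p = 0.771). Neither was called, while the heavy chain gene Fth1 was lower by −0.50 (adjusted p = 0.0228). Whether the 2 chains differ in their change was not tested.

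Bnip3l encodes the mitophagy receptor that clears mitochondria from maturing red cells, and its 3 probe sets also carry a pseudogene. The brightest stood at 0.053 (limma adjusted p = 0.71), the second at 0.33 (adjusted p = 0.0456) and the third at −0.39 (adjusted p = 0.0908). On the brightest, all wild type arrays had the same deposited value. Only the second was called, and its sign was opposite to that of the third.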
